A study of Mus musculus with 7 samples.

Results

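The genes described here encode the pore-forming alpha-1 subunits of the voltage-gated calcium channels of the mouse brain. They were taken by name as Cacna1a, Cacna1b, Cacna1c, Cacna1d, Cacna1e, Cacna1g, Cacna1h and Cacna1i, which are 8 of the 49315 genes in the count tables. All 8 held enough counts to be tested. The counts came from 7 RNA-seq libraries of primary mouse oligodendroglia kept in differentiating SATO medium for 6 days. Control cells were wildtype for Klf13 (4 libraries) and the others came from Klf13 knockout mice (3 libraries). Klf13 encodes a zinc finger transcription factor of the Krüppel-like family, and the question behind the comparison was which transcripts depend on it in differentiating oligodendroglia. The cells were grown from the brains of newborn pups of both sexes by shake-off from mixed glial cultures followed by microglia depletion, so that both groups are cultures in which some other brain cells may remain. The labels name no Cre line or other driver for the knockout, which was that of the mice from which the cells were taken. Whether a library came from 1 pup or from pooled pups is not given in the sources used here. The libraries are named as biological replicates, and p-values measure the spread between these libraries.

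Voltage-gated calcium channels open when the membrane depolarizes and let calcium flow into the cell. The alpha-1 subunit alone forms the pore and carries the voltage sensors, and its gene sets the current type. Cacna1c and Cacna1d encode L-type channels, Cacna1a the P/Q-type, Cacna1b the N-type, Cacna1e the R-type and Cacna1g, Cacna1h and Cacna1i the low-voltage-activated T-type channels. P/Q-type and N-type channels are best known for triggering transmitter release from nerve terminals. Cells of the oligodendrocyte lineage also carry L-type and other calcium channels, which have been studied for their part in the maturation of oligodendrocyte precursor cells (OPCs) and in myelination.

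The depth ranged from 24507471 to 59596479 counts on genes per library. Klf13 itself was counted in every library, at 10670 to 12000 normalized counts in control cells, against 802 to 961 in the knockouts, and its log2 fold change was -3.69 ± 0.09 (SE, adjusted p = 6.77e-06 by edgeR's quasi-likelihood test). Normalized counts are counts divided by the library size after TMM scaling and multiplied by the mean of these sizes. The oligodendrocyte label was checked on Mbp, which encodes myelin basic protein and was abundant in all libraries. It held 418535 to 495905 normalized counts in control cells, against 120773 to 145981 in the knockouts, and fell by 1.78 on the log2 scale (adjusted p = 8.2e-05 by edgeR's quasi-likelihood test). The share of counts on 3 genes that collect ribosomal RNA reads exceeded 10% in knockout replicates 1 and 3 as well as control replicates 1 and 4, and was 6.03% to 7.56% in the others.

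The pore genes are long protein-coding genes on 8 different chromosomes (GRCm38). Cacna1a lies at chr8:84388440-84640246 on the + strand and Cacna1i at chr15:80287238-80398279 on the + strand. On the - strand lie Cacna1b at chr2:24603887-24763152, Cacna1c at chr6:118587240-119196418, Cacna1d at chr14:30039949-30491156, Cacna1e at chr1:154390731-154884501, Cacna1g at chr11:94408391-94474198 and Cacna1h at chr17:25374285-25433783. Their counted exons add up to 9242 bases (Cacna1d) to 25131 bases (Cacna1e), and they fall into 35 to 56 exon blocks per gene. Exons of a gene on the opposite strand covered 3.81% of the exon bases of Cacna1a (Gm16183), 5.60% of those of Cacna1d (Chdh) and 1.62% of those of Cacna1h (Tpsg1). The strand setting of the counting is not given in the sources used here, so reads in those stretches cannot be told apart, but the overlapping genes held only 155, 698 and 11 counts over the 7 libraries. The exons of the other 5 overlapped no other gene.

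RefSeq start sites with promoter sequence (GRCm38.p6) were at hand for Cacna1b, Cacna1c, Cacna1d, Cacna1e and Cacna1i, and were not analysed here for Cacna1a, Cacna1g and Cacna1h. Krüppel-like factors bind GC-rich and CACCC-like letters. The 250 bases before each start were searched on both strands, overlaps allowed, for 6 patterns of 6 letters. These were ACGCCC together with ACACCC and the related ACTCCC, then likewise CCGCCC together with CCACCC and the related CCTCCC. Of 32851 mouse promoters, 72.6% held at least 1 such pattern, so that a match describes the letters only. Below are the N-type promoter, the Cacna1c start with the most patterns and the Cacna1e start, since Cacna1e had the highest fold change in the family; capitals mark the patterns, which begin with GGG where they lie on the opposite strand.
Cacna1b promoter, chr2:24763153-24763402, - strand: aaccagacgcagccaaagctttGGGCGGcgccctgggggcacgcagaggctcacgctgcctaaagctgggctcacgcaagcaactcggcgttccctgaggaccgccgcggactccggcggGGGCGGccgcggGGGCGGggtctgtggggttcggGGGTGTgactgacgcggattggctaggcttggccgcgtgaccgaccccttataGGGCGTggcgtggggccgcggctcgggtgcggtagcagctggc
Cacna1c promoter of the start within the gene, chr6:119108496-119108745, - strand: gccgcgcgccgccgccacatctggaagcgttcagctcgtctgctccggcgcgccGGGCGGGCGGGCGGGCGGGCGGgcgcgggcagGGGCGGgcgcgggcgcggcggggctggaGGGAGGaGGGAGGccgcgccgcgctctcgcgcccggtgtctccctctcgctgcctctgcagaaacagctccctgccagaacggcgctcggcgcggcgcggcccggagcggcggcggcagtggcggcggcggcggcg
Cacna1e promoter of the start within the gene, chr1:154725921-154726170, - strand: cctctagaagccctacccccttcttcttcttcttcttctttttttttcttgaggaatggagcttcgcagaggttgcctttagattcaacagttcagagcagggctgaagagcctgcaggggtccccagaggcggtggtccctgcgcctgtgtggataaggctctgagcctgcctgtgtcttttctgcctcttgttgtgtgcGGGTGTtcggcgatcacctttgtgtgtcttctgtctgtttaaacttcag
The Cacna1b window held 5 patterns, a number reached by 13.5% of all promoters, and its GC content was 72.0%. The Cacna1c window held 8, reached by 2.81% of all promoters, at a GC content of 82.8%. The other Cacna1c windows held 0 and 1, and the one with 1 belongs to another start within the gene. The Cacna1e window held 1 pattern, at a GC content of 52.0%. Of the Cacna1d starts 1 held 8 patterns and the other 0, and Cacna1i held 3. The starts of 1 gene thus ranged as widely in their patterns as the 5 genes did, and the counts per gene cannot tell which start was in use.

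In the comparison of knockout and control cells, 5 of the 8 pore genes rose and 0 fell, by an adjusted p that did not exceed 0.05. Of all 18352 genes tested 23.8% passed this threshold, 11.6% higher and 12.2% lower. With a log2 fold change of at least 1 as well, 4 pore genes were called higher and 0 lower, where 3.97% of all genes were higher and 3.08% lower. The 5 were the L-type genes Cacna1c and Cacna1d, the N-type gene Cacna1b, the R-type gene Cacna1e and the T-type gene Cacna1g. In 7 of the 8 genes each knockout library lay above each control, as in 18.3% of all genes; the reverse held for 0 pore genes and for 18% of all genes. The median log2 fold change was 1.23 over the pore genes and -0.004 over all genes tested. Libraries were made from whole cultures, where fewer cells of a type and less RNA per cell cannot be told apart. The adjusted p-values are over all genes tested by edgeR's quasi-likelihood test, and fold changes are knockout over control.

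**Figure D1:**
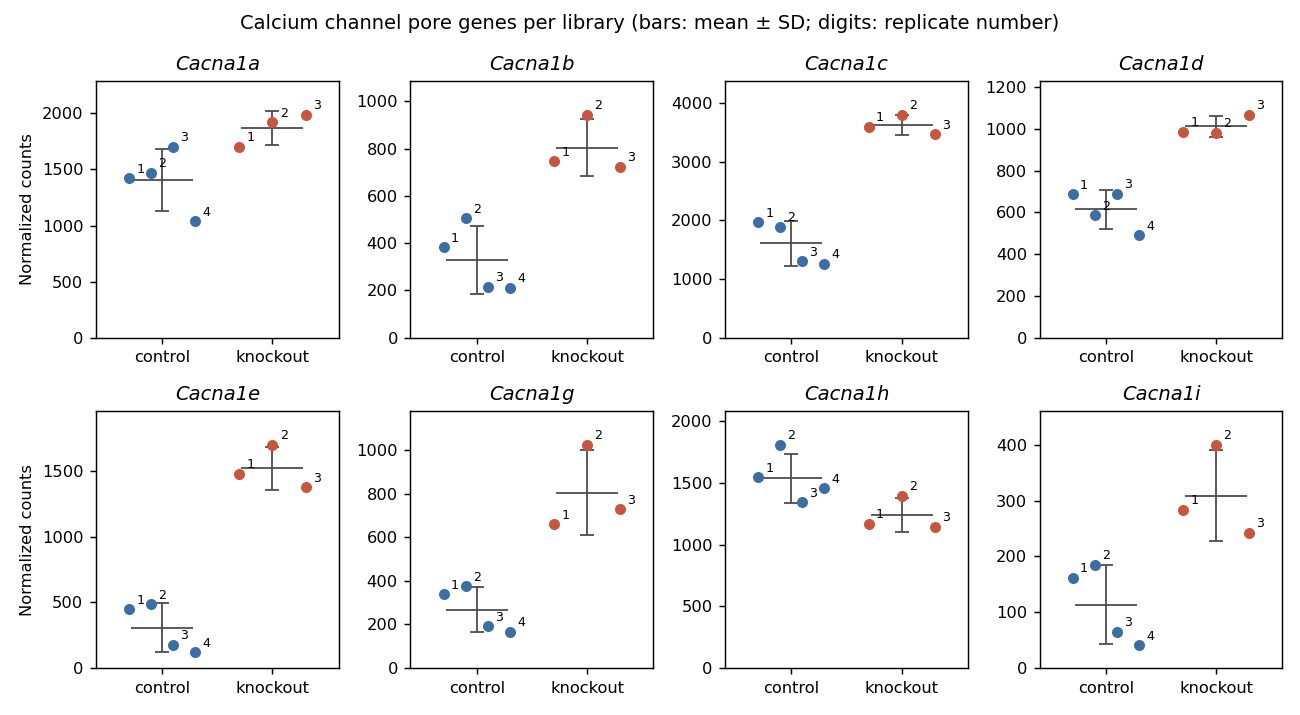
Normalized counts of the 8 pore genes in each library, with a panel per gene and its own axis from 0. Points are libraries labelled with the replicate number, and dashes with bars are group means ± SD (4 controls, 3 knockouts). The knockout points lie above the control points in each panel but that of Cacna1h, where they overlap.

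Both L-type genes rose. Cacna1c, whose channel is the L-type channel of heart muscle and of many neurons, had 1969, 1889, 1302 and 1262 normalized counts across control replicates 1 to 4, against 3598, 3803 and 3464 across knockout replicates 1 to 3. All knockout libraries thus stood far above the highest control, and the ratio of the means was 2.26. Its log2 fold change was 1.17 ± 0.17 (SE, adjusted p = 0.00425 by edgeR's quasi-likelihood test), with a 95% interval of 0.78 to 1.57. Cacna1d, whose L-type channel opens at more negative voltages, had 689, 588, 689 and 492 normalized counts across the controls, against 988, 982 and 1069 across the knockouts. The groups did not overlap, and knockout replicates 1 and 2 were nearly equal. The log2 fold change of Cacna1d was 0.72 ± 0.13 (SE, adjusted p = 0.00799 by edgeR's quasi-likelihood test), below the fold threshold of 1. Both genes passed at an adjusted p of 0.05 under each of the 16 alternative settings, with adjusted p-values of at most 0.0212 for Cacna1c and 0.0296 for Cacna1d.

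Among the P/Q-, N- and R-type genes the fold changes covered a wide range. Cacna1e, the R-type gene, had 448, 486, 177 and 118 normalized counts across the controls, against 1482, 1703 and 1380 across the knockouts. The lowest knockout stood far above the highest control, and the ratio of the means was 4.95. Its log2 fold change was 2.31 ± 0.47 (SE, 95% interval 1.21 to 3.41, adjusted p = 0.0134 by edgeR's quasi-likelihood test), which placed it 75th from the top of all 18352 genes by fold change. Cacna1b, the N-type gene, had 382, 505, 215 and 212 normalized counts across the controls, against 746, 944 and 723 across the knockouts. The knockouts again lay above all controls, although the controls spanned more than the knockouts did. The log2 fold change of Cacna1b was 1.29 ± 0.32 (SE, adjusted p = 0.0259 by edgeR's quasi-likelihood test). The calls of both genes depended on single libraries. Without knockout replicate 2 the adjusted p by edgeR was 0.0514 for Cacna1e and 0.0918 for Cacna1b, at log2 fold changes of 2.22 and 1.16. Without knockout replicate 1 that of Cacna1b was 0.0581.

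Cacna1a, the P/Q-type gene, had 1419, 1471, 1702 and 1039 normalized counts across the controls, against 1703, 1920 and 1989 across the knockouts. Control replicate 3 and knockout replicate 1 were equal but for about 1 count, so that the groups only just did not overlap. The log2 fold change was 0.41 ± 0.16 (SE, adjusted p = 0.0979 by edgeR's quasi-likelihood test), with a 95% interval of 0.05 to 0.77. With the replicate number as a block it was 0.29 and its adjusted p by edgeR was 0.0366. Leaving out control replicate 3 gave 0.51 (adjusted p = 0.0440 by edgeR's quasi-likelihood test).

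Of the 3 T-type genes 1 rose. This gene, Cacna1g, had 339, 374, 192 and 167 normalized counts across the controls, against 661, 1025 and 730 across the knockouts. Every knockout exceeded every control, and knockout replicate 2 stood above the other two. Its log2 fold change was 1.59 ± 0.31 (SE, 95% interval 0.86 to 2.33, adjusted p = 0.0122 by edgeR's quasi-likelihood test), and it passed under all 16 alternatives, with a highest adjusted p of 0.0497. Cacna1i, the least abundant pore gene, had 162, 185, 65.2 and 40.2 normalized counts across the controls, against 283, 400 and 242 across the knockouts. The groups did not overlap, but the controls differed among themselves by as much as 4.60 times. The log2 fold change of Cacna1i was 1.45 ± 0.51 (SE, 95% interval 0.27 to 2.64, adjusted p = 0.0777 by edgeR's quasi-likelihood test). Its adjusted p was 0.0213 with the replicate block in edgeR, 0.0189 with DESeq2's Wald test and 0.0345 with limma voom, so whether it was called depended on the test. In control replicate 4 only 43 raw counts fell on Cacna1i.

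Cacna1h was the pore gene with a negative fold change. It had 1546, 1811, 1344 and 1458 normalized counts across the controls, against 1172, 1397 and 1147 across the knockouts. Knockout replicate 2 lay above control replicate 3, so the groups overlapped. The log2 fold change was -0.31 ± 0.12 (SE, 95% interval -0.59 to -0.03), and its adjusted p by edgeR was 0.101. With the replicate number as a block the log2 fold change was -0.33 and its adjusted p by edgeR was 0.0290. Under the block 7 pore genes were higher and 1 lower, where 9.49% of all genes were higher and 11.1% lower.

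**Figure D2:**
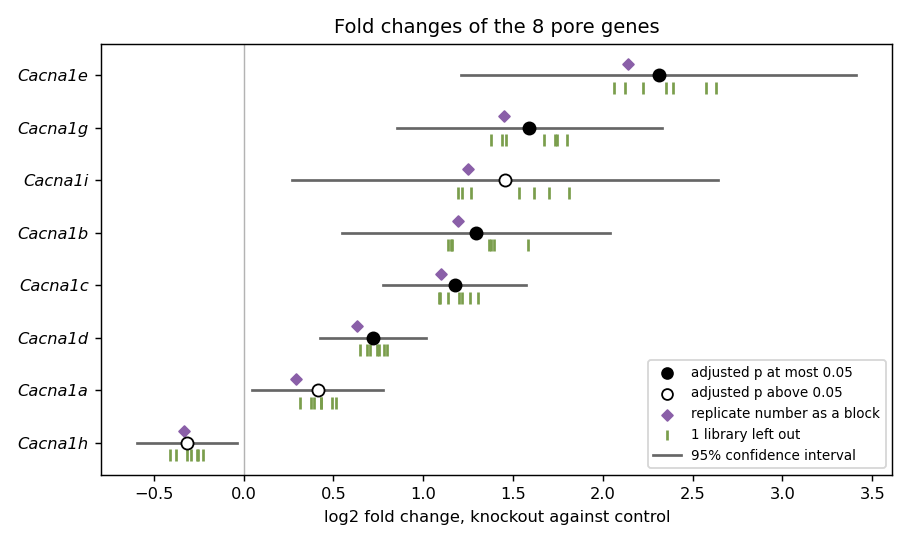
Log2 fold changes of the 8 pore genes, knockout over control, from edgeR's quasi-likelihood fit with 95% intervals, where filled circles have an adjusted p of 0.05 or less. Diamonds are the values with the replicate number as a block and ticks those with 1 library left out; Cacna1e lies farthest to the right at 2.31 and Cacna1h is the gene below 0 at -0.31.

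Values were also taken within each class of libraries by the share of ribosomal RNA reads, with no test. Among the libraries above 10% (2 controls, 2 knockouts) the log2 ratio of mean normalized counts was 2.34 for Cacna1e, 1.46 for Cacna1g, 1.38 for Cacna1i, 1.31 for Cacna1b and 1.13 for Cacna1c. Among those below it (2 controls, 1 knockout) the log2 ratios of the same genes were 2.36, 1.86, 1.68, 1.39 and 1.25. For Cacna1d they were 0.80 and 0.62, for Cacna1a 0.59 and 0.28, and for Cacna1h -0.37 and -0.18. The class below 10% holds 1 knockout library, so its values have no replicate check, and the part of this share in the fold changes was not tested.

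To compare the genes with each other, levels were taken per kb, that is as TMM-scaled CPM divided by the exon length in kb. In control cells the level per kb was highest for T-type Cacna1h, at 3.59 ± 0.46 (SD, n = 4), followed by P/Q-type Cacna1a at 2.80 ± 0.55. The L-type genes came next, with levels per kb of 1.72 ± 0.40 for Cacna1c and 1.51 ± 0.23 for Cacna1d. Cacna1b at 0.751 ± 0.325, Cacna1g at 0.601 ± 0.233, Cacna1e at 0.278 ± 0.169 and Cacna1i at 0.261 ± 0.164 formed the lower end of these levels. Neighbours in this order overlapped in their ranges over the 4 controls, except Cacna1d and Cacna1b. Within each of the 4 control libraries, however, Cacna1a lay above Cacna1c, Cacna1d above Cacna1b, Cacna1b above Cacna1g, Cacna1g above Cacna1e and Cacna1e above Cacna1i, and the other neighbours kept their order in 3 of 4. All 8 stood in the lower part of the transcriptome: over all libraries, between 21.2% (Cacna1i) and 49.7% (Cacna1h) of the genes tested had a lower level per kb.

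In knockout cells the order of levels per kb began with Cacna1c at 3.89 ± 0.18 (SD, n = 3) and Cacna1a at 3.73 ± 0.30, whose ranges overlapped. Cacna1h followed with a level per kb of 2.88 ± 0.32, and the ranges of Cacna1a and Cacna1h did not overlap. Below them lay the levels per kb of Cacna1d at 2.49 ± 0.12, Cacna1b at 1.84 ± 0.28, Cacna1g at 1.81 ± 0.43, Cacna1e at 1.38 ± 0.15 and Cacna1i at 0.711 ± 0.189. Cacna1b overlapped with Cacna1g and Cacna1g with Cacna1e, whereas the other neighbours did not overlap. Per kb, the last 5 were in the same order as in the controls, and the first 3 were not: Cacna1h moved from the top to the third place. Both orders rest on the division by length. Without it Cacna1c had the highest mean share of the summed counts in the controls, at 25.9% ± 2.2 (SD). The shares of Cacna1h, 25.3% ± 3.6, and Cacna1a, 23.0% ± 4.6, overlapped with that of Cacna1c within their SDs, so their order is not settled. The share of Cacna1e without division by length was 4.67% instead of 2.28%. In the knockouts the shares without it were 32.4% for Cacna1c, 16.8% for Cacna1a, 13.6% for Cacna1e, 11.1% for Cacna1h and 9.10% for Cacna1d, so that Cacna1e stood above Cacna1h and Cacna1d.

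**Figure D3:**
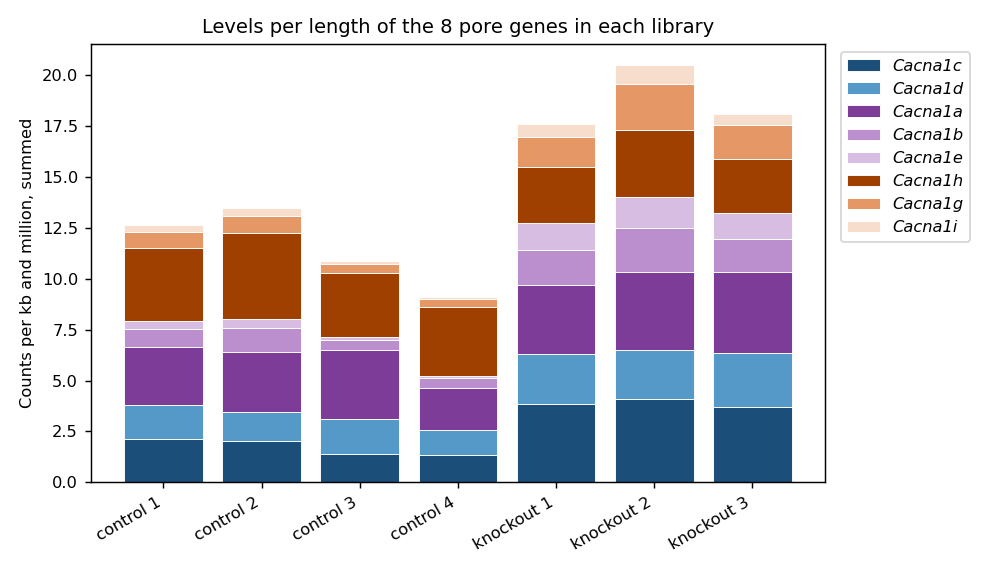
Levels of the pore genes per kb (TMM-scaled CPM divided by exon length), stacked into a bar per library, with blue for L-type, purple for P/Q-, N- and R-type and brown for T-type genes. The control bars reach 9.09 to 13.5 and the knockout bars 17.6 to 20.5, and the Cacna1h part of the bar does not grow with the others.

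Added up over the 8 genes, the level per kb was 12.6, 13.5, 10.8 and 9.09 in control cells, against 17.6, 20.5 and 18.1 in the knockouts. The sum over the L-type genes was 3.23 ± 0.53 (SD, n = 4) per kb in controls and 6.38 ± 0.11 (SD, n = 3) in knockouts, without overlap. The sum over the P/Q-, N- and R-type genes was 3.83 ± 0.81 in controls and 6.94 ± 0.55 in knockouts, and that over the T-type genes 4.45 ± 0.82 and 5.40 ± 0.93. As a share of the summed level, the L-type genes thus made up 28.2% ± 1.8 in controls and 34.2% ± 2.2 in knockouts, and the T-type genes 38.7% ± 3.7 and 28.7% ± 2.5. The ranges of both shares did not overlap between the groups. Cacna1h alone accounted for 31.5% ± 4.1 of the sum in controls and 15.4% ± 0.56 in knockouts, and Cacna1e for 2.28% ± 1.11 and 7.35% ± 0.39.

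The controls were not alike in these genes. In control replicates 3 and 4 the normalized counts of Cacna1b, Cacna1c, Cacna1e, Cacna1g, Cacna1h and Cacna1i were below those of replicates 1 and 2, which makes 6 of 8 pore genes, whereas 21.5% of all genes tested had this order. Among the knockouts, replicate 2 held the highest value of the same 6 genes. How many of all genes tested had theirs in replicate 2 was not counted. Between the highest and the lowest control the normalized counts differed 4.12 times for Cacna1e and 2.39 times for Cacna1b, but 1.35 times for Cacna1h and 1.40 times for Cacna1d. Control replicate 2 in turn held the highest control value of Cacna1b, Cacna1e, Cacna1g, Cacna1h and Cacna1i. What a replicate number marks is not given in the sources used here.

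Most neuron markers moved along with these values, and some did not. Of 15 neuron markers 14 were tested, and 10 rose and 0 fell, where 11.6% of all genes tested rose and 12.2% fell; with the replicate number as a block 9 were higher and 2 lower. Their summed level per kb, as TMM-scaled CPM divided by the exon length in kb, was 137 to 179 in control cells, against 191 to 274 in the knockouts. In 8 of the 14 markers tested, control replicates 3 and 4 lay below 1 and 2. The highest value of 11 was in knockout replicate 2, for which the share over all genes was not counted. The other 3, the neurofilament genes Nefl and Nefm and the RNA-binding gene Elavl3, were highest in a control and below the control mean in every knockout. Rbfox3, a splicing regulator of postmitotic neurons, had 194, 327, 153 and 66.5 normalized counts across the controls, against 608, 1040 and 496 across the knockouts. Map2, which encodes a microtubule protein of dendrites, had a log2 fold change of 0.73 (adjusted p = 0.00479 by edgeR's quasi-likelihood test) and Elavl3 one of -0.46 (adjusted p = 0.0977 by edgeR's quasi-likelihood test, 0.0241 with the block). Nefl was at -0.45 (adjusted p = 0.294 by edgeR, 0.0498 with the block) and Nefm at -0.73 (adjusted p = 0.203 by edgeR, 0.0585 with the block). Slc17a7, the transporter that marks glutamatergic neurons of the cortex, was at 0 to 13 counts in the 7 libraries and was not tested.

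Of 9 oligodendrocyte markers 0 rose and 9 fell, 7 of them past the fold threshold (median log2 fold change -2.69), at a summed level per kb of 3392 to 3720 in control cells, against 1183 to 1438 in the knockouts. Astrocyte markers were mostly higher. Of 10 markers 8 rose and 0 fell, set beside 11.6% and 12.2% of all genes tested, with a summed level per kb of 513 to 699 in control cells, against 989 to 1168 in the knockouts. The water channel gene Aqp4 had a log2 fold change of 1.19 (adjusted p = 0.0288 by edgeR's quasi-likelihood test) and the intermediate filament gene Gfap one of 0.66 (adjusted p = 0.0240 by edgeR's quasi-likelihood test). Both missed the threshold without knockout replicate 2, with edgeR's adjusted p at 0.0914 and 0.0880, and Aqp4 also without control replicate 3 (0.0536), knockout replicate 1 (0.0640) or knockout replicate 3 (0.0650). Of the 9 OPC markers 2 rose and 0 fell, where 11.6% of all genes tested rose and 12.2% fell. Counted in either direction, 2 of 9 is near the 23.8% of all genes that passed. With the block 2 of the OPC markers were higher and 1 lower. Their summed level per kb was 513 to 588 in control cells, against 600 to 622 in the knockouts. The proteoglycan receptor gene Ptprz1 had a log2 fold change of 0.33 (adjusted p = 0.0455 by edgeR's quasi-likelihood test, between 0.0614 and 0.123 without control replicate 2 or 4 or any knockout library). That of Gpr17, a receptor gene of committed precursors, was 0.26 (adjusted p = 0.0532 by edgeR's quasi-likelihood test). Gpr17 gained the call with limma voom, upper quartile factors, library sizes without the 100 highest genes or at least 10 counts in every library. It also did so without control replicate 4, and under no other alternative. The part of these cell types in the values of the pore genes was not tested. Markers of microglia (0 of 8 higher, 0 lower), fibroblasts and mural cells (0 of 7 higher, 1 lower) and endothelial cells (0 of 4 higher, 1 lower) were not called higher. The median log2 fold change of the fibroblast and mural markers was -1.84. With the block 0 microglia, 3 fibroblast and mural and 1 endothelial markers were lower, and none of these markers was higher. Their summed levels per kb were 227 to 1046 in control cells, against 237 to 469 in the knockouts for microglia, 83.3 to 224 and 44.4 to 84.3 for fibroblasts and mural cells, and 1.18 to 3.31 and 0.940 to 1.45 for endothelial cells.

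**Figure D4:**
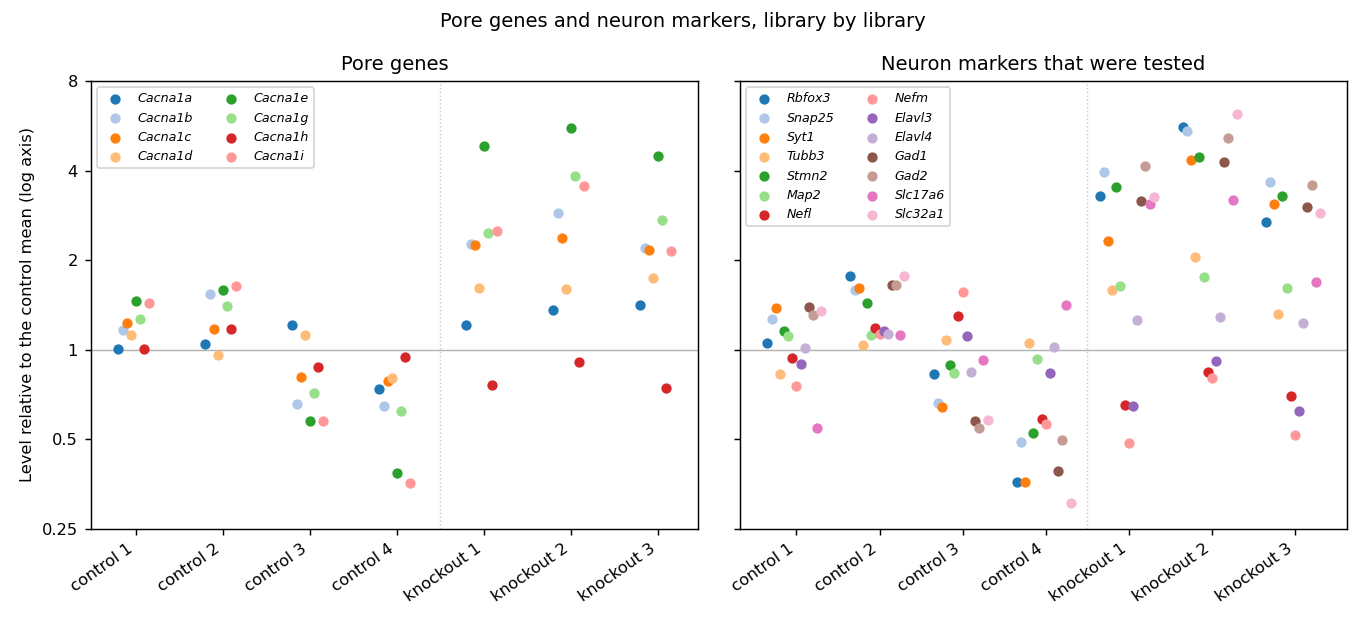
Normalized counts of the 8 pore genes and of the 14 tested neuron markers in each library, divided by the mean of the gene over the 4 controls, on a log axis with a line at 1. Points are genes. Cacna1b, Cacna1c, Cacna1e, Cacna1g and Cacna1i reach their highest values in knockout 2, and so do 11 of the 14 markers, whereas Nefl, Nefm and Elavl3 lie below 1 in all 3 knockouts.

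For each pore gene the gene with the most similar profile was sought among 14692 others, by the root mean square difference over the 7 libraries of log2 normalized counts centred on the gene's mean. For Cacna1e it was Dcx, a microtubule protein gene of young neurons, with a difference of 0.0767. For Cacna1b it was Gabrb2, which encodes a subunit of the GABA-A receptor (0.0490), for Cacna1g the RNA-binding gene Celf5 (0.0884), and for Cacna1c the calmodulin kinase gene Camk1g (0.0443). Mgat5, a glycosyltransferase gene, was nearest to Cacna1a (0.0368), Cyp4f14 to Cacna1d (0.0664), Fam69a to Cacna1h (0.0637) and Dchs2 to Cacna1i (0.145). Within the family, Cacna1b and Cacna1g were nearest to each other (0.175), as were Cacna1a and Cacna1d (0.185), whereas the nearest pore gene lay farther off for Cacna1h (Cacna1a, 0.444) and Cacna1e (Cacna1i, 0.449). These values describe 7 libraries that share their group difference.

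Of the remaining genes of the family, Cacna1f and Cacna1s, and the related gene Nalcn, 1 passed the test, on few counts. Cacna1f, the L-type gene of the retina, held 5 to 8 counts per library and was not tested. Cacna1s, that of skeletal muscle, held 9 to 21 counts in control cells, against 3 to 8 in the knockouts, with a log2 fold change of -1.39 (adjusted p = 0.0463 by edgeR's quasi-likelihood test). A value could be had under 12 of the 16 alternatives, and the call was lost under 9 of these, among them the replicate block (adjusted p = 0.0625 by edgeR) and leaving out knockout replicate 1, 2 or 3 (0.116, 0.152 and 0.0994). Nalcn, the related sodium leak channel, was at 3123 ± 314 normalized counts (SD, n = 4) in controls and 3633 ± 13.6 (SD, n = 3) in knockouts, a log2 fold change of 0.22 (adjusted p = 0.0980 by edgeR's quasi-likelihood test).

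The auxiliary subunits bind the alpha-1 subunit and set its trafficking and gating. Of the 4 alpha-2-delta and 4 beta subunit genes 1 rose and 1 fell, which is near the 23.8% of all genes tested that passed. Cacnb4, a beta subunit gene, had 3474, 3736, 2860 and 3136 normalized counts across the controls, against 1320, 1333 and 1274 across the knockouts. The knockouts lay far below all controls and close together, at a log2 fold change of -1.33 (adjusted p = 0.000197 by edgeR's quasi-likelihood test). The gene that rose was Cacnb1, with a log2 fold change of 0.77 (adjusted p = 0.0378 by edgeR's quasi-likelihood test, up to 0.129 when 1 library was left out). Cacnb3, the auxiliary gene with the highest level per kb, had a log2 fold change of 0.13 (adjusted p = 0.560 by edgeR's quasi-likelihood test).

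Of the 8 gamma subunit genes, several of which serve as auxiliary subunits of AMPA receptors, 6 were tested and 4 rose (11.6% over all genes), with a median log2 fold change of 0.91. Cacng2, the gene of stargazin, had 248, 339, 114 and 70.2 normalized counts across the controls, against 708, 1081 and 674 across the knockouts. Control replicates 3 and 4 were again the lowest and knockout replicate 2 the highest, and the log2 fold change was 2.09 (adjusted p = 0.0242 by edgeR's quasi-likelihood test). Cacng4, the gamma gene with the highest level per kb, had a log2 fold change of 0.44 (adjusted p = 0.0232 by edgeR's quasi-likelihood test). Without knockout replicate 1 the adjusted p by edgeR was 0.0536 for Cacng2 and 0.0587 for Cacng4, and without knockout replicate 2 it was 0.0887 and 0.0869.

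Of 14 genes of calcium stores 2 rose and 4 fell. Over all genes tested 11.6% rose and 12.2% fell, so that the number higher is near this share. Ryr2, a ryanodine receptor gene, rose by a log2 fold change of 1.08 (adjusted p = 0.0110 by edgeR's quasi-likelihood test). Stim1, the sensor of store filling, fell from 4829 ± 219 (SD, n = 4) to 2768 ± 134 (SD, n = 3) normalized counts (adjusted p = 0.000220 by edgeR's quasi-likelihood test); it was named after its values were seen. Atp2a2, the gene of the SERCA2 pump and the store gene with the highest level per kb, had a log2 fold change of -0.24 (adjusted p = 0.0331 by edgeR's quasi-likelihood test), which missed the threshold when any library but control replicate 3 or 4 was left out, with adjusted p-values from 0.0640 to 0.114. Under the replicate block 2 store genes were higher and 2 lower.

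Of 9 genes of calcium extrusion 5 rose and 1 fell, beside the same shares over all genes (11.6% and 12.2%). The 4 plasma membrane calcium pump genes all rose, with log2 fold changes of 1.70 for Atp2b3, 1.41 for Atp2b2, 1.24 for Atp2b4 and 0.33 for Atp2b1 (adjusted p = 0.00645, 0.0244, 0.00279 and 0.0153 by edgeR's quasi-likelihood test). Without knockout replicate 2 those of Atp2b2 and Atp2b1 were 0.0895 and 0.0615, and without knockout replicate 1 that of Atp2b2 was 0.0605. Slc24a2, a potassium-dependent sodium/calcium exchanger gene, went the other way. It had 2962, 3097, 2858 and 2749 normalized counts across the controls, against 354, 337 and 430 across the knockouts, a log2 fold change of -2.96 (adjusted p = 1.94e-05 by edgeR's quasi-likelihood test), and no knockout came near a control.

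Of 20 genes of calcium sensing 6 rose and 2 fell, the latter near the 12.2% of all genes that fell; 11.6% of all genes rose. Camk4, a calmodulin kinase gene, had 361, 384, 405 and 308 normalized counts across the controls, against 1114, 1160 and 1128 across the knockouts. Its log2 fold change was 1.64 (adjusted p = 0.000108 by edgeR's quasi-likelihood test), and its 4 controls lay close together. Camk2a and Camk2b, the main calmodulin kinase II genes of neurons, rose by log2 fold changes of 1.79 and 1.49 (adjusted p = 0.0120 and 0.0191 by edgeR's quasi-likelihood test), the latter with 0.0761 without knockout replicate 2. Calm2, a calmodulin gene and the sensor gene with the highest level per kb, had a log2 fold change of 0.15 (adjusted p = 0.131 by edgeR's quasi-likelihood test). Of 11 genes of channel modulators 10 were tested and 1 rose, which is near the 11.6% of all genes that rose. This was Gem, a small GTPase gene known to hold back calcium channels. It rose by 0.96 on the log2 scale (adjusted p = 0.00734 by edgeR's quasi-likelihood test). Kcnip3, the modulator with the highest level per kb, had a log2 fold change of 0.06 (adjusted p = 0.535 by edgeR's quasi-likelihood test).

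Over the 7 lists, 69 of 73 genes were tested, 19 rose and 9 fell, and 41 did not pass. Over all genes tested 11.6% rose and 12.2% fell, and the number of list genes that fell is near this share. Their median log2 fold change was 0.22. With the replicate number as a block 21 were higher and 6 lower, where 9.49% and 11.1% of all genes were.

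**Figure D5:**
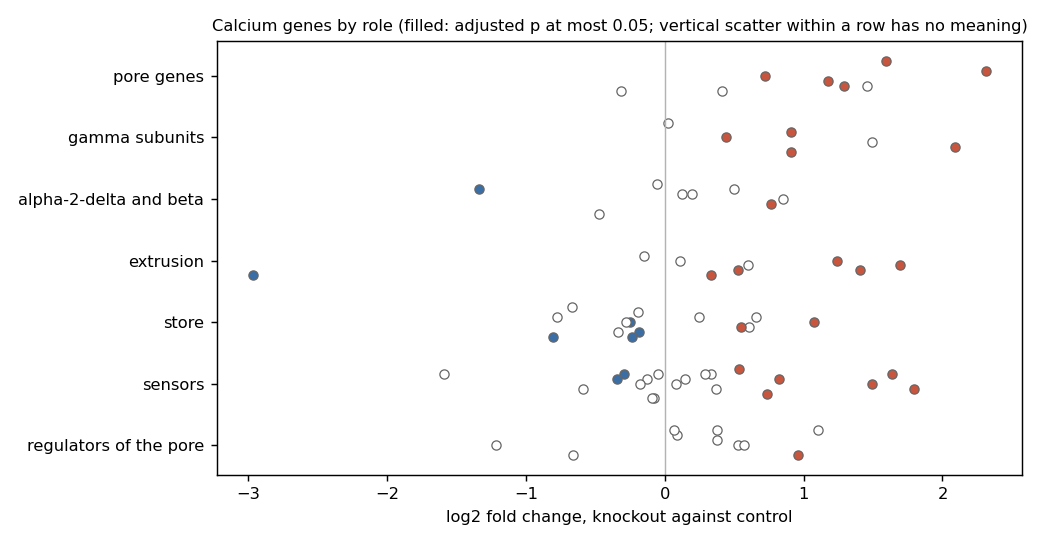
Log2 fold changes, knockout over control, of the pore genes and of the calcium genes by role. Rows are lists and points are genes tested, filled where the adjusted p is at most 0.05 (red higher, blue lower). The list of Cacna1f, Cacna1s and Nalcn is not drawn. Vertical scatter within a row has no meaning. The pore genes lie between -0.31 and 2.31, and the lowest point of all is Slc24a2 at -2.96 in the extrusion list.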

How the data were processed

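The authors trimmed paired reads with Trimmomatic 0.36, mapped them to the mouse genome (GRCm38) with STAR 2.5.2b and deposited counts of unique reads on exons per gene, made with Subread 1.5.2, as raw whole numbers. The exon length is deposited beside the counts. The annotation release and the strand setting are not given in the sources used here. Of 49315 gene identifiers 48970 had a symbol, and 44772 had the same start and end in GENCODE M21.

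The main test used edgeR 4.0.16 under R 4.3.3: filterByExpr by group, TMM, robust quasi-likelihood fit with the group as its only term, and Benjamini-Hochberg adjustment over 18352 genes. A call needed an adjusted p within 0.05, and a log2 fold change of 1 or more in size where the fold threshold is named. The study used DESeq2's Wald test with the same thresholds; DESeq2 1.42.0 and limma 3.58.1 (voom), other scalings and filters, a replicate block and leaving out each library were alternatives. Same-numbered libraries had correlations of 0.105, 0.442 and 0.142 of their deviations from the group means, all above 0.1, so the numbers were taken to pair the libraries by a preset rule; those of differently numbered libraries ran from -0.509 to 0.181, 3 of them at 0.142 to 0.181, and the labels do not say what a number marks; control replicate 4 has no partner. No 2 libraries of the same group were alike within sampling noise. The fit was also run on simulated counts, with an outcome that is not reported here. Counting error only is covered by the depth, where 3 counts are 0.0503 to 0.122 CPM.

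Named genes were the pore genes, Klf13, Cacna1f, Cacna1s and Nalcn, the gene with the highest level per kb and up to 4 genes past the fold threshold in each calcium list, the 2 marker genes of highest count per cell type (1 of them is not reported here) and the nearest profile of each pore gene. Beyond them Cacnb1, Stim1, Gem, Rbfox3, Nefl, Nefm and Slc17a7 were named after their values were seen. The genes and lists were chosen with earlier results of these data known. Promoters were cut to the 250 bases before the start. A planned comparison of the proteins was not run.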

Additional observations from a re-analysis of the deposited data

Results flagged for a closer look

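Of 41 named genes examined for a control far from the other 3, the complement genes C1qa and C1qb of microglia stood out in control replicate 3, with 21476 and 19021 normalized counts against 4595 to 4882 and 4000 to 5364 in the others. Chance alone flags about 1 in 20 groups. None of the 8 pore genes had such a control.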

How the results depend on the processing

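For the 8 pore genes, 117 of 128 values under the 16 alternatives kept their direction and their side of the threshold, 5 lost the call, 6 gained it and 0 changed sign. The count of 5 pore genes higher was 3 without a filter on low counts, where Cacna1b and Cacna1e missed the threshold with adjusted p-values of 0.0680 and 0.0637 in edgeR's quasi-likelihood test, and 3 to 6 when 1 library was left out. Without this filter the calls of Cacng2 (0.0982), Atp2b2 (0.0829), Camk2b (0.0878), Aqp4 (0.116), Atp2a2 (0.0615) and Cacna1s (0.0924) also ended. For the other named genes 467 of 524 values kept direction and side, 41 lost the call, 14 gained it and 2 changed sign. The count of 4 past the fold threshold was 2 without the filter and 2 to 4 with a library left out. In both, the lowest counts, 3 and 2, came without knockout replicate 2. With the replicate block 1 pore gene was lower, and the block also ended the calls of Cacna1s and Ptprz1 and made those of Elavl3 (-0.55), Col1a1 (-1.77) and Col1a2 (-2.05). Over all genes, 729 were called higher and 565 lower at the fold threshold; leaving out a library gave 335 to 810 and 388 to 577. At the adjusted p alone, 2122 higher became 850 to 1843 and 2246 lower became 1254 to 2032. The lowest counts came without knockout replicate 2 (335 and 850 higher) and without knockout replicate 1 (1254 lower). For the calcium lists, 19 higher became 10 to 20 and 9 lower became 3 to 7 with a library left out: 10 and 3 without knockout replicate 2, 3 without knockout replicate 1, 4 without control replicate 1 and 5 without knockout replicate 3. Upper quartile factors and total counts each gave 4 lower. Without control replicate 3, C1qa turned from -0.41 to 0.51 and C1qb from -0.32 to 0.48; with other libraries left out they went as low as -0.61 and -0.70. Without division by length, the share in the controls was 25.9% for Cacna1c, 25.3% for Cacna1h, 10.1% for Cacna1d and 4.67% for Cacna1e. The lowest raw count of a pore gene was 43, for Cacna1i in control replicate 4. The cause of these moves was not tested.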
